A study of Mus musculus with 4 samples.

Results

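The MHC class II presentation genes described here are H2-Aa, H2-Ab1 and H2-Eb1, H2-DMa and H2-DMb1, Cd74 and Ciita. They were chosen by name, and all 7 had a value among the 13677 genes measured. The RNA of inguinal white fat of mice, a depot under the skin, was sequenced. Wildtype animals (WT) gave 2 libraries and animals labelled as an adipose knockout of FLCN (FLCNKO) gave 2. FLCN is folliculin, a tumour suppressor protein that acts on mTOR signalling. The labels give neither the strain, age or sex of the mice nor the promoter that drives the knockout, and no label ties a library to 1 animal, so p-values speak only of the spread among these libraries.

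MHC class II molecules display peptides from engulfed and endosomal proteins to CD4+ T cells. An alpha and a beta chain form the peptide groove in the endoplasmic reticulum, where the invariant chain, encoded by Cd74, occupies it until proteases in endosomes cut it down to a short remnant. H2-DM then exchanges that remnant for antigen peptides. The coactivator CIITA switches these genes on together by docking on factors bound to their conserved promoter boxes, named X and Y. Dendritic cells, B cells and macrophages carry most class II molecules, and in adipose tissue adipocytes have also been described to make them. Inguinal fat encloses a lymph node, which is rich in B cells.

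The promoters of 3 of the 7 genes are shown because their shared boxes are the known docking place of the common regulator. Each line is the strand of the gene, 5′ to 3′, over the 150 bases before the transcription start in RefSeq's annotation of GRCm38.p6. Capitals mark TGATTGG, the core of the Y box, and, before it, GCAAC, the start of the X box. H2-Aa lies at chr17:34287824-34287973 on the minus strand, H2-Eb1 at chr17:34305717-34305866 and H2-DMb1 at chr17:34153041-34153190, both on the plus strand.
H2-Aa: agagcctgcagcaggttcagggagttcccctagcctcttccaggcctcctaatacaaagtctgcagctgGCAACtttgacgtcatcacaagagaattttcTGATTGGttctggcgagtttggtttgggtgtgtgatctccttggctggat
H2-Eb1: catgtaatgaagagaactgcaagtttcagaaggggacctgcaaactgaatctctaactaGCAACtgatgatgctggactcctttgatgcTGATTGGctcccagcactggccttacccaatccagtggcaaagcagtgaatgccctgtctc
H2-DMb1: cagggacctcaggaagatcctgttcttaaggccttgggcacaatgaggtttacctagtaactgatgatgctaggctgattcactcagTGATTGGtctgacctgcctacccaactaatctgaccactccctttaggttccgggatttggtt

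The letters of both motifs were chosen after these promoters were seen. The Y motif TGATTGG, searched on both strands of the 250 bases before the start, was in 7.23% of all 32851 promoter windows of the table. GCAAC, with the Y motif after it at a distance of 15 to 40 bases, on either strand, was in 0.213%. H2-Aa and H2-Eb1 held the pair, with TGATTGG starting 50 and 61 bases before the transcription start, and H2-DMb1 held TGATTGG without GCAAC before it. Neither of the 2 windows of H2-DMa held TGATTGG. In any of these genes a missing motif says only that its exact letters are not in the window. H2-DMb1, for example, has the similar letters gtaac before its TGATTGG. H2-Ab1, Cd74 and Ciita are named only. Of the related genes H2-Eb2, H2-Oa and H2-Ob held the pair, and H2-DMb2 held TGATTGG alone.

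The deposited values are on a log2 scale and were nearly equal in distribution across libraries, and the read depth behind them is unknown. Flcn itself had log2 values of 12.36 and 12.21 in the WT libraries and 12.35 and 12.12 in the FLCNKO libraries, so it did not separate the groups. The deleted exons are not named, so this value cannot check the labels. Adipocyte markers were high in every library, with a summed level between 21.18 and 21.21 on the log2 scale. Fabp4, at 20.23 to 20.57, was the largest part of this sum, so it does not show that each marker was equal. Lep, for example, was 14.96 in FLCNKO replicate 1 and 16.97 in FLCNKO replicate 2. WT replicate 1 stood apart in one class II gene. H2-Ea-ps, the alpha chain partner of H2-Eb1, had a log2 value of 14.24 there, against 1 in WT replicate 2, 3.94 in FLCNKO replicate 1 and 2.37 in FLCNKO replicate 2. The values of 1 and 2.37 are the lowest that their libraries hold. In the C57BL/6 strain, whose genome is the mouse reference, this gene makes no alpha chain, and RefSeq lists it as a pseudogene there. H2-Q1 and H2-Q2, class I genes of the same chromosome, followed the same pattern, with 9.32 and 8.79 in WT replicate 1 and at most 3.94 elsewhere. The differences of the 7 genes, and the medians of most other lists, are therefore also given without WT replicate 1.

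**Figure D1:**
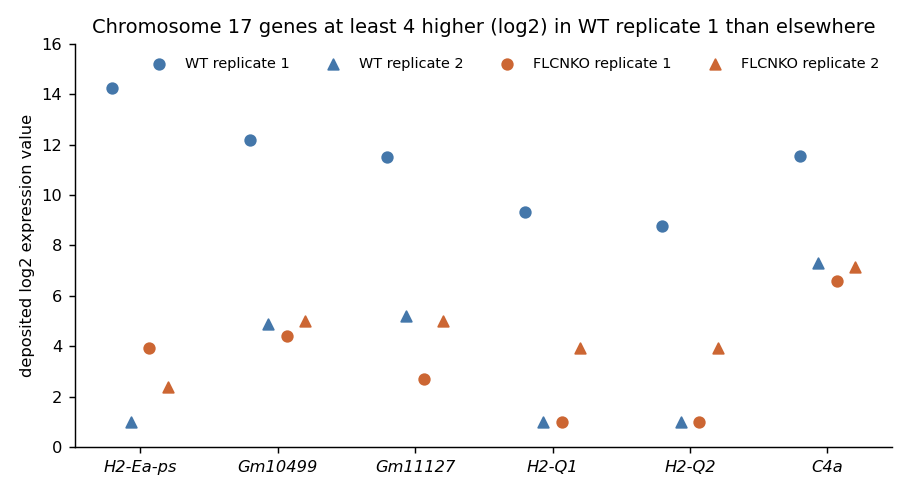
Deposited log2 values per library (vertical axis) of the 6 chromosome 17 genes that were at least 4 higher in WT replicate 1 than in each other library, with circles for replicate 1 and triangles for replicate 2 of each group. H2-Ea-ps has the widest separation, 14.24 against at most 3.94.

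Every class II presentation gene had a lower mean in FLCNKO than in WT, and none passed the test. The log2 fold changes, FLCNKO minus WT, ran from -0.82 for Cd74 to -0.24 for Ciita, with a median of -0.57 against a median of 0.0046 over all genes. In limma, with adjustment over all 13677 genes, 0 of 7 members were called and 1 (Cd74) had an unadjusted p under 0.05. Over all genes limma called 0.614% lower, and 10.3% were lower at an unadjusted p under 0.05. Both WT libraries lay above both FLCNKO libraries for 6 of 7 members, and over all genes for 25.4%. In bulk tissue, fewer cells of a type and less RNA per cell cannot be told apart.

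The classical chains H2-Aa, H2-Ab1 and H2-Eb1 build the peptide-binding molecules I-A (alpha and beta) and the beta chain of I-E. H2-Aa had log2 values of 15.91 and 15.31 in the WT libraries and 15.20 and 14.60 in the FLCNKO libraries. The groups did not overlap, but WT replicate 2 and FLCNKO replicate 1 were only 0.11 apart. FLCNKO minus WT was -0.71 ± 0.29 (moderated SE, 2 libraries per group; limma adjusted p = 0.234) as a log2 difference, a mean level 1.64-fold lower. The 95% interval ran from -1.44 to 0.02. Every SE and 95% interval of a difference given here is limma's moderated one, which also draws on the variance of other genes. It can be narrower than the gene's own libraries give, for H2-Aa SDs of 0.42 in WT and 0.43 in FLCNKO. The difference of H2-Aa was -0.41 without WT replicate 1 (adjusted p = 0.747) and -0.41 without FLCNKO replicate 2 (adjusted p = 0.476).

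H2-Ab1, the partner chain of H2-Aa, had log2 values of 14.85 and 14.37 in the WT libraries and 14.29 and 13.78 in the FLCNKO libraries. Replicate 1 was the higher library in both groups, and the middle 2 libraries were 0.08 apart. H2-Ab1 differed by -0.58 ± 0.24 (SE; limma adjusted p = 0.245), 1.49-fold lower. H2-Eb1 had log2 values of 15.06 and 14.60 in the WT libraries and 14.56 and 13.96 in the FLCNKO libraries. The middle libraries of H2-Eb1 nearly met, at a distance of 0.04, and their groups differed by -0.57 ± 0.26 (SE; limma adjusted p = 0.275). When WT replicate 1 was left out, H2-Ab1 and H2-Eb1 both differed by -0.34, and when FLCNKO replicate 2 was left out by -0.32 and -0.27.

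Cd74, which encodes the invariant chain, showed the largest difference and the clearest separation of the 7. Its log2 values were 16.43 and 15.92 in the WT libraries and 15.52 and 15.20 in FLCNKO, means of 16.18 ± 0.36 and 15.36 ± 0.23 (SD, n = 2). The lowest WT library was 0.40 above the highest FLCNKO library. Cd74 differed by -0.82 ± 0.22 (SE; limma adjusted p = 0.118), a level 1.76-fold lower, with a 95% interval from -1.38 to -0.26. The Cd74 difference was -0.56 without WT replicate 1 (adjusted p = 0.537) and -0.66 without FLCNKO replicate 2.

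The peptide exchange molecule H2-DM consists of an alpha chain, H2-DMa, and a beta chain, H2-DMb1. H2-DMa had log2 values of 11.47 and 11.27 in the WT libraries and 11.21 and 10.67 in the FLCNKO libraries. All but 1 of its libraries lay close together, and FLCNKO replicate 2 was lowest. The group difference of H2-DMa was -0.43 ± 0.21 (SE; limma adjusted p = 0.305). H2-DMb1 had log2 values of 11.49 and 11.18 in the WT libraries and 11.09 and 10.69 in the FLCNKO libraries, with a log2 fold change of -0.45 ± 0.19 (SE; limma adjusted p = 0.256). H2-DMb1 is uncertain as a single gene, because 31.4% of its 31-base stretches also occur in transcripts of other genes, most of them of its neighbour H2-DMb2. In the other 6 members this share was at most 1.41%. H2-DMa and H2-DMb1 differed by -0.33 and -0.29 when WT replicate 1 was left out, and by -0.16 and -0.25 when FLCNKO replicate 2 was. H2-DMa moved to -0.70 without FLCNKO replicate 1.

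Ciita, the gene of the common coactivator, was the exception in its order of libraries. Its log2 values were 10.47 and 9.76 in the WT libraries and 10.19 and 9.57 in FLCNKO, so the groups overlapped and both replicate 1 libraries were above both replicate 2 libraries. Ciita differed by -0.24 ± 0.32 (SE; limma adjusted p = 0.718), and its 95% interval ran from -1.06 to 0.59. The Ciita difference was 0.12 without WT replicate 1 and 0.07 without FLCNKO replicate 2. The interval includes falls as large as those of H2-Aa and Cd74, so a different behaviour of Ciita is not shown.

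**Figure D2:**
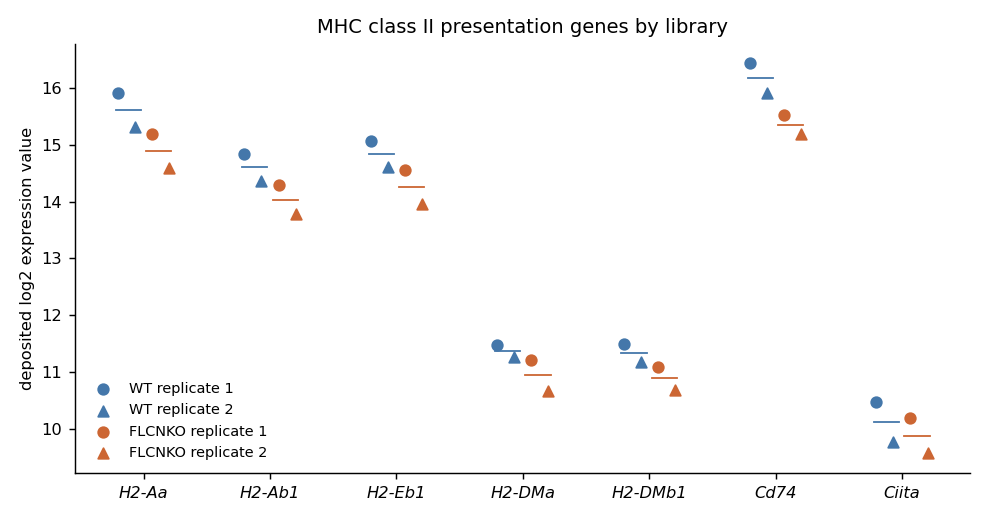
Deposited log2 values (vertical axis) of the 7 genes in each library, with circles for replicate 1, triangles for replicate 2 and short lines for group means of 2 libraries. In every gene except Ciita the 4 libraries run downwards from WT replicate 1 over WT replicate 2 and FLCNKO replicate 1 to FLCNKO replicate 2.

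Levels of different genes can be compared only per length. Genes of very different length shared the same low values, for example 63 genes of 448 to 20733 exon bases at a value of 5.94 in WT replicate 1, so the deposited values carry no visible length correction. After subtraction of log2 of the exon length in kilobases, the WT mean per-kilobase level was 15.43 for Cd74, 13.87 for H2-Eb1, 13.68 for H2-Aa and 13.25 for H2-Ab1. The per-kilobase levels of H2-DMb1, H2-DMa and Ciita were 10.59, 9.59 and 6.86. Invariant chain RNA was thus above the 3 chains, the chains above H2-DM and H2-DM above Ciita, and the same order held for the FLCNKO means. H2-Eb1 and H2-Aa differed in level by less than their SDs of 0.32 and 0.42 in WT.

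The spread within each group was nearly as large as the difference between the groups. For all 7 members WT replicate 1 was above WT replicate 2 and FLCNKO replicate 1 above FLCNKO replicate 2, and over all genes for 25.8%. The median distance between the 2 libraries over the members was 0.48 within WT and 0.54 within FLCNKO on the log2 scale. For 6 of 7 members the libraries stood in the order WT replicate 1, WT replicate 2, FLCNKO replicate 1, FLCNKO replicate 2, and over all genes for 8.34%. Set library against library, the median difference of the members was -1.07 between FLCNKO replicate 2 and WT replicate 1, and -0.08 between FLCNKO replicate 1 and WT replicate 2. Leaving out WT replicate 1 moved the members' median to -0.34 and leaving out WT replicate 2 to -0.80. It became -0.83 when FLCNKO replicate 1 was dropped, and -0.27 when FLCNKO replicate 2 was.

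**Figure D3:**
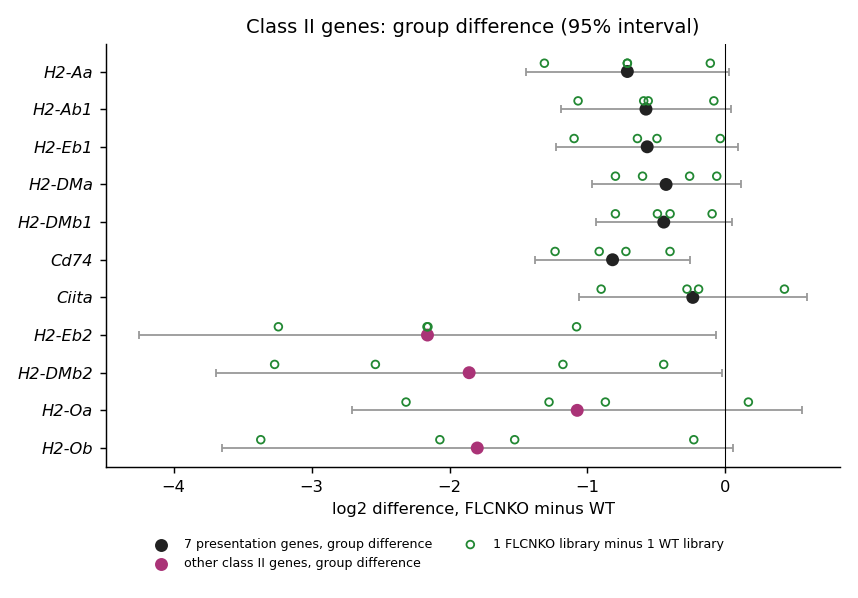
Log2 difference FLCNKO minus WT (horizontal axis) for the 7 presentation genes (black) and 4 other class II genes (purple), with 95% intervals from limma and open circles for the 4 differences between single libraries. Of the 7 only the interval of Cd74, from -1.38 to -0.26, lies wholly below 0.

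The other class II genes include the H2-DO chains H2-Oa and H2-Ob, which restrain H2-DM and are best known from B cells, and the relatives H2-Eb2 and H2-DMb2. Limma called 0 of 5 in either direction, and 2 were lower at an unadjusted p under 0.05 (10.3% over all genes). The median was -1.86, and -0.81 when WT replicate 1 was left out. H2-DMb2 had log2 values of 10.81 and 8.72 in the WT libraries and 8.28 and 7.55 in the FLCNKO libraries, so WT replicate 1 stood above the rest. H2-DMb2 differed by -1.86 ± 0.72 (SE; limma adjusted p = 0.218), and it is uncertain as a single gene too, with 36.4% of its 31-base stretches shared, mostly with H2-DMb1. H2-Ob had 10.70 and 9.40 in WT and 9.17 and 7.33 in FLCNKO, with a log2 fold change of -1.80 ± 0.72 (SE; limma adjusted p = 0.233). H2-Eb2 and H2-Oa differed by -2.16 and -1.07 at low levels, at adjusted p-values of 0.212 and 0.388. H2-Ea-ps had no interpretable group difference, since 1 library held nearly all of its signal.

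Regulators upstream of the class II genes lay on both sides of 0. Of 16 genes limma called 0 in either direction. At an unadjusted p under 0.05, 2 were lower and 0 higher, against 10.3% and 12.1% over all genes. The median log2 fold change was -0.13. This median was -0.09 without WT replicate 1, -0.25 without FLCNKO replicate 1 and -0.05 without FLCNKO replicate 2. Ifngr1, a chain of the interferon gamma receptor, had log2 values of 15.04 and 14.99 in the WT libraries and 14.26 and 14.58 in the FLCNKO libraries, a difference of -0.60 ± 0.14 (SE; limma adjusted p = 0.0999). Spi1, which encodes the myeloid factor PU.1, differed by -0.40 (adjusted p = 0.2). The kinase gene Jak2 differed by -0.32 and Rfx5, a subunit of the factor that binds the X box, by -0.30, with adjusted p-values of 0.269 and 0.299. Irf4, an interferon regulatory factor gene named here after its values were seen, had the widest difference of the 16, -0.81 ± 0.84 (SE; limma adjusted p = 0.627), with overlapping groups.

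Among 12 genes of endosomal processing and class II turnover, limma called 1 higher and 0 lower, with a median of -0.26 (-0.15 without WT replicate 1). The carboxypeptidase gene Ctsz rose from 14.10 and 13.81 in WT to 15.61 and 15.55 in FLCNKO, by 1.62 ± 0.14 on the log2 scale (SE; limma adjusted p = 0.0336). Over all genes limma called 0.98% higher. The rise of Ctsz lay between 1.48 and 1.77 without any 1 library. Those fits leave 1 library in a group, so they cannot show whether the rise would pass. At an unadjusted p under 0.05, 12.1% of all genes were higher and 10.3% lower. The other genes of the list lay on both sides without passing, with 1 more gene higher and 5 lower at that limit. The gene higher was Ctsd, an aspartic protease named here after its values were seen, with a log2 difference of 0.56 ± 0.14 (SE; limma adjusted p = 0.109). Ctsh, an aminopeptidase, differed by -0.95 ± 0.15 (adjusted p = 0.055) and the asparaginyl endopeptidase gene Lgmn by -0.62 ± 0.12 (adjusted p = 0.0689). Cst3, the cystatin C gene that inhibits such proteases, differed by -0.52 (adjusted p = 0.0829). Ctss, the protease best known for trimming the invariant chain, had log2 values of 13.34 and 13.04 in the WT libraries and 12.61 and 12.07 in the FLCNKO libraries and lies outside the rule for named genes.

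Costimulatory molecules and T cell ligands of class II made a list of 7 genes, of which limma called 0 in either direction. Of these, 2 were lower at an unadjusted p under 0.05, against 10.3% over all genes. The median log2 fold change of this list was -0.34, and it lay between -0.66 without WT replicate 2 and -0.10 without FLCNKO replicate 2. Lag3, which encodes an inhibitory T cell receptor for class II, differed by -0.70 ± 0.17 (SE; limma adjusted p = 0.0999), and Cd40, a receptor on antigen-presenting cells, by -0.94 ± 0.26 (adjusted p = 0.122). Icam1 and Cd86 differed by -0.47 and -0.19, with adjusted p-values of 0.245 and 0.515.

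Class I presentation, the parallel route that shows peptides of the cell's own proteins, was also lower without passing. Of 9 measured genes limma called 0 in either direction, and 5 were lower at an unadjusted p under 0.05 (10.3% over all genes). The list had a median of -0.49 (-0.53 without WT replicate 1). H2-K1 had log2 values of 16.99 and 17.11 in the WT libraries and 16.36 and 16.18 in the FLCNKO libraries, a difference of -0.78 ± 0.14 (SE; limma adjusted p = 0.0647). H2-D1 differed by -0.76 ± 0.15, Tapbp by -0.49 ± 0.10 and the peptide transporter gene Tap2 by -0.49 ± 0.12, with adjusted p-values of 0.0722, 0.0809 and 0.103. The WT values of H2-K1 were closer to each other than to either FLCNKO value, unlike those of H2-Aa, H2-Ab1 and H2-Eb1.

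B cell markers, like the class II genes, were higher in replicate 1 of each group. All 9 B cell markers were higher in WT replicate 1 than in WT replicate 2 and higher in FLCNKO replicate 1 than in replicate 2. Over all genes this held for 25.8%. The full order of libraries seen in 6 of 7 members held for 6 of 9 B cell markers and for 10 of 13 macrophage markers. Over all genes it held for 8.34%. Their summed log2 level was 13.71 and 11.53 in WT and 11.31 and 9.58 in FLCNKO, and the B cell median was -2.22 (-1.02 without WT replicate 1). Limma called 0 of 9 (3 lower at an unadjusted p under 0.05, against 10.3% over all genes). Cd22, an inhibitory coreceptor of B cells, had log2 values of 10.76 and 8.70 in the WT libraries and 7.79 and 6.43 in the FLCNKO libraries (adjusted p = 0.15). The B cell markers Ms4a1, Cd79a and Fcer2a differed by -2.22, -2.46 and -2.35 on the log2 scale, with adjusted p-values of 0.164, 0.214 and 0.244.

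The 5 measured genes of lymph node stroma and homing had summed log2 levels of 13.10 and 11.67 in WT and 11.32 and 10.42 in FLCNKO. Cxcl13, the chemokine that draws B cells into follicles, had log2 values of 12.48 and 11.32 in the WT libraries and 10.75 and 10.10 in the FLCNKO libraries (limma adjusted p = 0.136). Glycam1, made by the high endothelial venules of lymph nodes, was 8.79 in WT replicate 1 and at most 3.94 in the other libraries (adjusted p = 0.511). Cxcr5, a homing receptor of B cells, differed by -3.73 (adjusted p = 0.211). Glycam1 and Cxcr5 were at 2.37, the lowest value of that library, in FLCNKO replicate 2. Limma called 0 of the 5 in either direction, and 2 were lower at an unadjusted p under 0.05 (10.3% over all genes). WT replicate 1 had the highest summed class II, B cell and lymph node levels, and it held the H2-Ea-ps signal. Its summed levels were also the highest for the macrophage, dendritic cell, class I, adipocyte and skeletal muscle lists. For the T cell, epithelial and endosomal processing lists another library was highest. The part of any of these lists in the class II differences was not tested.

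The 13 macrophage markers had summed log2 levels of 17.93 and 17.71 in WT and 17.11 and 16.88 in FLCNKO, and 2 fell, against 0.614% called lower over all genes. These were the integrin gene Itgam, by 1.15 ± 0.12 on the log2 scale (SE; limma adjusted p = 0.0404), and the complement gene C1qc, by 1.01 ± 0.12 (adjusted p = 0.0419). Without any 1 library Itgam differed by between -1.24 and -1.05 and C1qc by between -1.10 and -0.93. Those fits leave 1 library in a group, so they cannot show whether either gene would pass. C1qa and Lyz2 differed by -1.04 and -0.89 at adjusted p-values of 0.0549 and 0.0556. The macrophage median was -0.77 (-0.61 without WT replicate 1), and 9 of 13 were lower at an unadjusted p under 0.05 (10.3% over all genes). Both WT libraries lay above both FLCNKO libraries for 11 of 13 markers, and over all genes for 25.4%. Within WT the macrophage markers differed by a median of 0.17, against 0.48 for the class II genes.

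Of the 10 dendritic cell markers 3 were higher in both WT libraries, 4 in both FLCNKO libraries and 3 overlapped. Over all 13677 genes 3474 were higher in both WT libraries and 3998 in both FLCNKO libraries. The dendritic cell median was -0.20 (-0.03 without WT replicate 1). Limma called 0 of the 10, and 1 was lower at an unadjusted p under 0.05 (10.3% over all genes). Clec10a, a lectin of dendritic cells and macrophages, had log2 values of 13.95 and 13.49 in the WT libraries and 13.21 and 12.56 in the FLCNKO libraries (limma adjusted p = 0.161), the same order of libraries as the class II genes. Clec9a, a receptor of cross-presenting dendritic cells, differed by 0.64 in the opposite direction, Siglech by -0.77 and Flt3 by -0.52, with adjusted p-values of 0.296, 0.283 and 0.353.

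**Figure D4:**
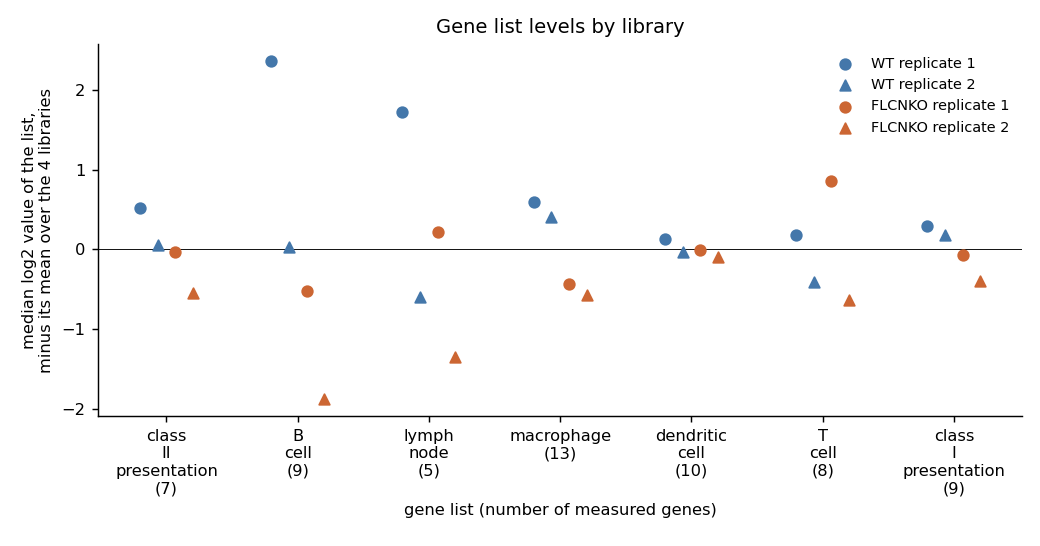
Median log2 value of each gene list in each library, minus the list's mean over the 4 libraries (vertical axis), with circles for replicate 1 and triangles for replicate 2. The B cell list spans from 10.67 to 6.43 as uncentred medians and the class II list from 14.85 to 13.78. Every list shown was lowest in FLCNKO replicate 2, and all but the T cell list were highest in WT replicate 1.

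T cell markers did not separate the groups. Their summed log2 levels were 10.95 and 10.13 in WT and 11.16 and 9.88 in FLCNKO, and limma called 0 of 8 (0 at an unadjusted p under 0.05). Trac, Cd2, Cd3e and Cd3d differed by 0.76, -0.40, 0.60 and 0.30, with adjusted p-values of 0.532, 0.58, 0.603 and 0.82. Skeletal muscle markers, with summed levels of 16.99 and 14.01 in WT and 15.85 and 13.36 in FLCNKO, were also higher in replicate 1 of each group (0 of 8 called, 0 at an unadjusted p under 0.05). As a median over the 8 markers, FLCNKO replicate 2 stood far below the rest, at 5.32 against 12.53 in FLCNKO replicate 1 and 13.66 and 10.76 in the WT libraries. The sum of FLCNKO replicate 2 came almost wholly from Acta1, the skeletal actin gene, at 13.32, while its other 7 markers were at most 6.36. The part of this difference in the class II values, which were also lowest in FLCNKO replicate 2, was not tested. Epithelial markers were low, at summed levels between 8.11 and 9.11, with 0 of 3 called and 0 at an unadjusted p under 0.05. Of 8 adipocyte markers 0 were called, and Adipoq was lower at an unadjusted p under 0.05, by -0.46 (adjusted p = 0.185).

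WT replicate 2 and FLCNKO replicate 1 were the pair of libraries from different groups closest in B cell markers, a pair chosen after the values were seen. Their B cell markers differed by a median of -0.07, a value that is small by this choice. The median was -0.08 for the class II presentation genes, 0.03 for lymph node genes and 0.05 for dendritic cell markers. It was -0.50 for macrophage markers, -0.41 for class I genes and -0.39 for adipocyte markers. For T cell and skeletal muscle markers it was 1.14 and 2.15. Single genes scattered widely around these medians. The class II presentation genes ran from -0.40 for Cd74 to 0.43 for Ciita. Among the B cell markers Cd22 was lower and Pax5 higher in FLCNKO replicate 1 than in WT replicate 2. Between WT replicate 1 and FLCNKO replicate 2 the medians were -4.22 for B cell markers, -1.07 for class II genes and -1.07 for macrophage markers. These are single pairs of libraries with no test, and the part of B cells in the class II differences was not tested.

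The genes whose values followed the members most closely were found by centring each gene on its mean over the 4 libraries and taking the root mean square difference from the members' median profile. Among 11304 genes with a mean of at least 8, the nearest were Pik3cd (0.0218), Fcrls (0.0290), Dclk1 (0.0318), Car8 (0.0333) and Tec (0.0375), followed by Tmsb4x, Ifi203, Mndal, Lcp1 and Apobec3. Pik3cd, for example, had log2 values of 11.29 and 10.85 in the WT libraries and 10.72 and 10.25 in the FLCNKO libraries. Pik3cd differed by -0.59 ± 0.23 (SE; limma adjusted p = 0.226), and none of the 10 passed the test. With 4 libraries many genes can share such a profile. Among the members themselves H2-Ab1 lay closest to the median profile, at 0.0080, and Ciita farthest, at 0.191.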

How the data were processed

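RNA sequencing of 4 inguinal white adipose tissue libraries, 2 WT and 2 FLCNKO, gave 1 deposited table per library. The authors deposited a log2 expression value per Ensembl gene. Per the submitters' processing notes, the tools were STAR and limma and the build was mm9. Which counter, annotation and strandedness were used is not given in the sources used here. Library medians lay between 10.7636 and 10.7645, with one shared highest value, so a shift common to most genes cannot be seen.

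Groups and replicate numbers come from the titles. Symbols matched 13592 of 13677 genes. limma 3.58.1 in R 4.3.3 fitted group as the only term with a mean-variance trend (residual degrees of freedom 2, prior 3.09). Tests were two-sided, with Benjamini-Hochberg adjustment over all genes and a threshold of 0.05. The fit was checked on simulated data with planted differences larger than those of the 7 members. That check does not show what the fit finds at the size of the members' differences. No filter was applied. The 7 members and the 13 other lists were chosen with earlier results of these data known. The rule for named genes took every member, called genes and up to 4 smallest p-values of each list, Flcn and the 10 genes nearest in profile; 1 gene it named is not reported here. H2-Ea, March1 and March8 were matched through older symbols, and Psmb9, Ccl21a, Ccl19, Madcam1, Epcam, Krt5 and Krt14 are not analysed here. Exon lengths and shared 31-base stretches come from GENCODE M21 on GRCm38, another build than mm9, so gene coordinates are not given. Promoters are RefSeq's, on GRCm38.p6. A total of 11 alternatives were run: a filter on a mean of 8, 2 normalizations, 2 variance settings, array weights, a replicate block and dropping each library in turn. Figures were drawn with matplotlib 3.10.9.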

Additional observations from a re-analysis of the deposited data

How the results depend on the processing

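All 7 members kept their sign in every alternative except Ciita, and their median log2 fold change lay between -0.83 and -0.27 when 1 library was left out. Ciita lay between -0.59 and 0.12 in those fits. The number of called members was 0 in 10 of 11 alternatives. The fits without the trend or without 1 library called no gene at all, so they cannot show whether this number is stable. The labels do not say whether WT and FLCNKO libraries of the same replicate number belong together. Over genes, the WT and FLCNKO replicate differences had a correlation of 0.3629. With the replicate block limma called 842 genes (401 higher, 441 lower) in place of 218, 22 genes of the other lists and 2 members, Cd74 (adjusted p = 0.044) and H2-Aa (adjusted p = 0.0467), from 1 residual degree of freedom. Over these alternatives adjusted p ran from 0.044 to 0.537 for Cd74 and from 0.0467 to 0.747 for H2-Aa. Counts over all genes moved more. The filter on a mean of 8 gave 138 genes lower in place of 84 and 6 in the other lists in place of 3, and robust estimation gave 344 in all, 143 lower and 5 in the lists. Without the trend 0 were called in all, higher, lower and in the lists (2702 at an unadjusted p under 0.05), and likewise 0 without any 1 library (1395 to 3455 unadjusted). The T cell median of 0.13 was -0.33 with the filter and between -0.57 and 0.72 without 1 library. Adipocyte medians then lay between -0.35 and 0.0927 and muscle medians between -6.39 and 0.49. The cause of these changes was not tested. Depth is unknown, and 2 libraries per group limit what can be seen.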

Other observations

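WT replicate 1 was at least 4 higher on the log2 scale than every other library in 14 genes, and 6 of these lie on chromosome 17, which holds 4.77% of the measured genes and the mouse MHC. Beside H2-Ea-ps, H2-Q1 and H2-Q2 these were Gm10499 (12.20 against at most 5.00), Gm11127 (11.50 against at most 5.21) and the complement gene C4a (11.56 against at most 7.30). The rest of the 14 lie on other chromosomes and include Glycam1 and several processed pseudogenes. Among the pseudogenes were Rps18-ps3 on chromosome 8 (12.39 against at most 4.53) and Gm14513 on chromosome X (9.94 against at most 2.37). In WT replicate 2 such a gap was also seen in 14 genes, of which 1 lies on chromosome 17, in FLCNKO replicate 1 in 2 genes with 0 there, and in FLCNKO replicate 2 in 0 genes. H2-Q1 and H2-Q2 share 23.7% and 32.2% of their 31-base stretches with other genes, while H2-Ea-ps shares 0. The gap of 4 was chosen after the data were seen. Whether the libraries come from mice with different MHC haplotypes was not tested, and the labels give no strain.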
